A study of Mus musculus with 2 samples.

Results

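The S phase genes described here are 40 genes whose products copy DNA, supply its building blocks, package or repair the new strands, or time the start of replication. They were taken by symbol from a list of S phase genes. No measured value was a criterion, but earlier results of these data were known when the list was chosen. All 40 were found among the 27998 genes of the deposited matrices. Their transcripts were counted in single cells of mouse lungs at postnatal day 10, with 1 control library and 1 mutant library. The labels of the mutant name Nkx2-1 together with Aqp5, and those of the control name Nkx2-1 alone. Cells of both libraries were sorted by FACS for epithelial, immune, endothelial and mesenchymal cells and run on the 10x Chromium platform with 3' chemistry (version 2). The labels do not give the alleles, what removed Nkx2-1 in which cells, the sex or the number of animals, nor the share of each sorted population that was loaded. Nkx2-1 encodes a homeobox factor of the lung epithelium, and the series asks how it controls the development and upkeep of alveolar type 1 (AT1) cells, the thin cells of gas exchange.

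Before a cell divides it copies its genome once, in S phase. In the preceding G1 phase, origins are licensed by loading the MCM helicase, and E2F transcription factors then switch on a group of genes for the helicase, the polymerases, the deoxynucleotides and the histone chaperones. G2 phase and mitosis follow, marked by another group of genes that includes Mki67, Top2a and Cdk1. AT1 cells are known as cells that divide rarely, while alveolar type 2 (AT2) cells, which make surfactant, endothelial cells and mesenchymal cells still divide in the growing lung. The RNA of a gene in a class of cells does not tell more cells in S phase from more RNA in each of them, so cells were also counted singly.

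The promoters of the genes are shown first, because E2F control is the shared feature for which this gene group is known. RefSeq promoter windows of GRCm38.p6, each from 250 bases before to 50 bases after a start site, were matched for 30 of the 40 genes. An E2F consensus match was taken as any of TTTCCCGC, TTTCGCGC, TTTGCCGC or TTTGGCGC on either strand. It was present for 12 of the 30 genes (40%) and for 13 of 31 other DNA replication genes (41.9%). Of G2 and M phase genes 3 of 46 had it (6.52%), and of all genes of the files with a window 562 of 17999 (3.12%). The letters CCAAT, on either strand, were in 21 of the 30 windows (70.0%) against 41.8% of all genes, and TTTGAA, the core of the CHR element of mitotic genes, in 6 (20%) against 18.1%. A match is a description of the letters and no measurement of binding. The windows below are stretches upstream of the RefSeq start site that overlap no exon of GENCODE M21, read 5′ to 3′ on the strand of the gene, with E2F matches in capitals. They were picked after the values were seen: the first 5 genes were higher in the mutant AT1 compartment by 8.20-fold or more, and the last, Casp8ap2, had the smallest ratio there.
Mcm6: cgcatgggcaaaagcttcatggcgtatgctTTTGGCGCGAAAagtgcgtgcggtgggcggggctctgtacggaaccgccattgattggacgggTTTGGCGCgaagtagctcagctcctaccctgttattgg
Mcm5: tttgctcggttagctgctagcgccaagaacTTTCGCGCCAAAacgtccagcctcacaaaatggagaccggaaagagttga
Dtl: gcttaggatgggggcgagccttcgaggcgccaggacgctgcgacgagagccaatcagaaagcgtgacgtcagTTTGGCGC
Pola1: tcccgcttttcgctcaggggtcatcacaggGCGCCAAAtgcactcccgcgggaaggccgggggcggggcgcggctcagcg
Cdc6: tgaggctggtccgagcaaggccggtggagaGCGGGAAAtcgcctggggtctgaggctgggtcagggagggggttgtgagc
Casp8ap2: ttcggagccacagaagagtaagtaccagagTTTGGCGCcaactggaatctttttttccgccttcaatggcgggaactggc
These stretches lie at chr1:128359715-128359845 (minus strand) for Mcm6, chr8:75109326-75109405 (plus) for Mcm5 and chr1:191575545-191575624 (minus) for Dtl. Pola1 is at chrX:93632244-93632323 (minus), Cdc6 at chr11:98907983-98908062 (plus) and Casp8ap2 at chr4:32615264-32615343 (plus). GENCODE starts Cdc6 further upstream, at position 98907801, so by that annotation its stretch lies inside the gene, between exons. The match of Dtl ends at the base before the start site, that of Mcm6 nearest the start ends 39 bases before it, and that of Casp8ap2 168 bases before it. Casp8ap2 thus carries the same 8 letters as Mcm6 and Dtl.

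The libraries held 4461 control barcodes with 29862980 unique molecular identifiers (UMIs, each a counted RNA molecule) and 4551 mutant barcodes with 47271104 UMIs. After filtering, 4013 and 4265 cells were used, and 27 barcodes occurred in both libraries. Cells were put in 6 classes: the AT1 compartment (541 control and 2226 mutant cells), AT2 (1270 and 216), airway (139 and 66), endothelial (589 and 482), mesenchymal (1078 and 1013) and immune (328 and 171). The AT1 compartment is made of the epithelial cells that fell in no AT2-like, club-like or ciliated-like cluster, since AT1 markers may themselves be lower in the mutant. Nkx2-1 had 484 counts per 1000000 UMIs of the class (CPM) among control and 13.5 CPM among mutant cells there, and the AT1 marker Ager had 22633 and 1311 CPM. Tags come from the 3' end and the deleted part of Nkx2-1 is not named in the labels, so its count does not check the deletion. Of the compartment's mutant cells, 1674 lay in 4 clusters that could not be called AT1-like from markers, and these held 1 control cell in all. They entered it because no other name was reached. Their best marker matches were AT1 for epit3 and epit7 (log2 fold 0.565 and 0.948), club for epit6 (1.54) and basal for epit1 (0.154). All lay under the naming limit of 2. Compartment values, Ager among them, are thus of these cells together with the AT1-like ones. The 5 epithelial markers summed to 1099 CPM in control and 4172 CPM in mutant epithelial cells, and to 19.5 and 54.8 CPM in the other lineages, and the part of such stray counts in the results below was not tested.

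With 1 library per group, differences have no replicate check and no test was made. Values are of these libraries, and the 95% intervals after them are exact and cover counting error only (Poisson for levels, conditional binomial for ratios, Clopper-Pearson for shares). Ratios are mutant over control. Each molecule gives 1 tag near its 3' end, so counts were not divided by transcript length.

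In the AT1 compartment all 40 S phase genes had a higher level in the mutant library than in the control, where 56.4% of all genes did. The 40 genes summed to 313 CPM (295 to 332, from 1147 UMIs) for control and to 1141 CPM (1129 to 1153, from 35278 UMIs) for mutant cells, a ratio of 3.65 (3.44 to 3.87). The control level was the lowest of the 6 classes in that library, and the mutant level stood second only to endothelial cells. At least 2-fold higher were 34 of the 40 genes, against a background of 21.9% of the 12762 genes with at least 20 UMIs in the class. None was at least 2-fold lower, against 12.4% of genes. The median log2 ratio of the 40 genes was 2.80, against 0.14 for all genes, with 4 genes that had no control UMI set at their lower bound. The median cell had 6409 control or 12305.5 mutant UMIs, a gap in depth that CPM takes out of the level. The control values have wider intervals because they rest on fewer S phase UMIs, 1147 from 541 cells against 35278 from 2226 cells.

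**Figure D1:**
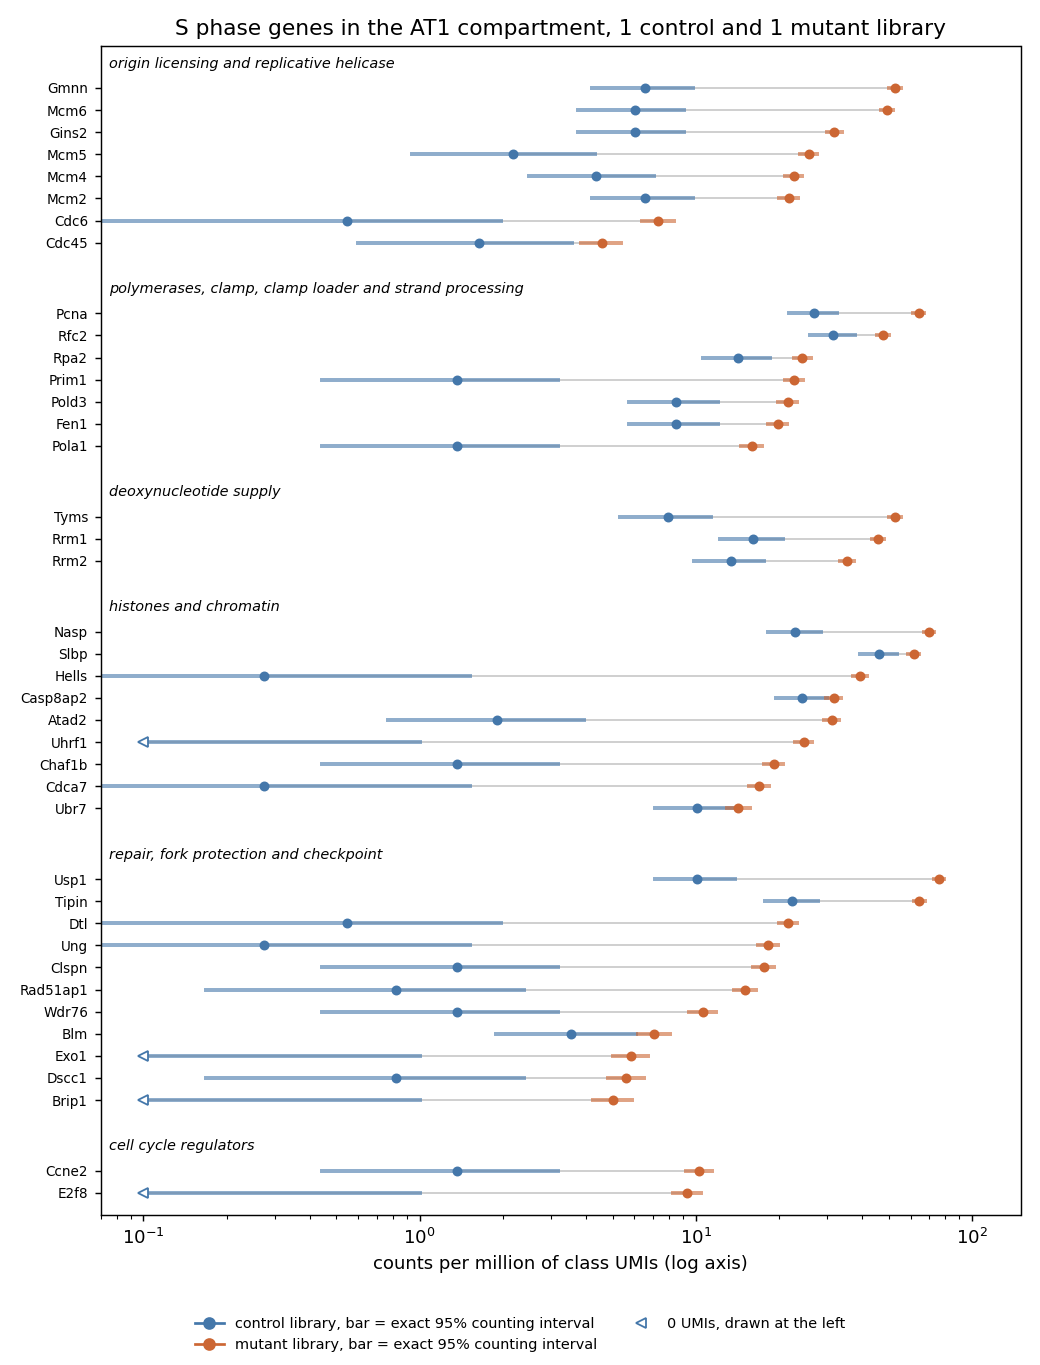
Level of each S phase gene in the AT1 compartment, in CPM on a log axis, for the control library (blue) and the mutant library (orange); bars are exact 95% counting intervals and triangles mark 0 UMIs. The orange point lies to the right of the blue one for all 40 genes. Among genes with control UMIs the gaps are widest for Hells, Ung, Cdca7 and Dtl and narrowest for Casp8ap2, Slbp and Ubr7.

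Genes of origin licensing and the replicative helicase summed to 33.8 CPM in the control compartment and 216 CPM in that of the mutant, a ratio of 6.38 (5.34 to 7.68), and all 8 were at least 2-fold higher. Gmnn encodes geminin, which stops an origin from being licensed again, and had 6.55 CPM for control and 52.8 CPM for mutant cells, 8.07-fold higher (5.40 to 12.6). Mcm6, a subunit of the MCM ring, had 6.0 and 49.2 CPM, a ratio of 8.20 (5.40 to 13.1). The other MCM subunits of the list differed in their ratios, from 3.32 (2.21 to 5.21) for Mcm2 to 11.8 (5.94 to 27.3) for Mcm5. These subunits join in a single ring, and their control levels ran from 2.18 CPM for Mcm5 to 6.55 CPM for Mcm2. Cdc6, which loads the ring, had 2 control and 226 mutant UMIs, a ratio of 13.4 (3.67 to 111). Gins2 and Cdc45, which turn the loaded ring into a working helicase, were 5.29-fold and 2.79-fold higher.

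The deoxynucleotide supply was also higher as a group, from 37.4 to 134 CPM, a ratio of 3.58 (3.02 to 4.27), with 3 of 3 genes at least 2-fold higher. Tyms makes thymidylate and had 7.91 CPM for control and 52.6 CPM for mutant cells, a ratio of 6.65 (4.61 to 9.96). Rrm1 and Rrm2, the large and small subunit of ribonucleotide reductase, had smaller ratios of 2.85 (2.19 to 3.76) and 2.64 (1.99 to 3.60). Rrm2 had 49 UMIs in 45 control cells (13.4 CPM), while Hells, Ung and Cdca7 had 1 UMI each over the same 541 cells.

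Polymerases, clamp and strand processing had the smallest ratio of the roles at 2.35 (2.11 to 2.63), from 91.9 to 216 CPM, and 5 of 7 genes were at least 2-fold higher. Pcna, the sliding clamp, had 26.7 CPM for control and 64.2 CPM for mutant cells, a ratio of 2.40 (1.96 to 2.97). A Pcna pseudogene, Pcna-ps2, is listed beside it with 16 and 29 UMIs in the libraries, so Pcna is uncertain where a read matches both. Rfc2, a subunit of the clamp loader, was at 31.4 and 47.6 CPM, 1.52-fold higher (1.26 to 1.85). The DNA polymerase alpha-primase genes differed more: Prim1, the primase, had a ratio of 16.6 (7.10 to 51.4) and Pola1, the catalytic subunit, 11.7 (4.98 to 36.2), each from 5 control UMIs.

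Histone supply and chromatin genes held both the largest and the smallest ratios of the compartment. As a group they went from 107 to 309 CPM, a ratio of 2.88 (2.60 to 3.19), and 6 of 9 were at least 2-fold higher. Nasp, a histone chaperone, had 22.9 and 70.2 CPM (ratio 3.06, 2.46 to 3.85). Slbp binds the stem-loop of histone mRNA and had the highest control level, 46.1 CPM, against 61.6 CPM for mutant cells, a ratio of 1.34 (1.14 to 1.57). Casp8ap2, needed for histone gene expression, was at 24.3 and 31.6 CPM, a ratio of 1.30 (1.05 to 1.64), and Ubr7 at 10.1 and 14.3 CPM, a ratio of 1.41 (1.01 to 2.03). These are the smallest ratios of the 40 genes, and their intervals came near 1. At the other end, Hells, a remodeller that supports DNA methylation, had 1 control and 1214 mutant UMIs, a ratio of 144 (25.8 to 5690.1). Cdca7, its partner, had 1 and 524 UMIs (ratio 62.1, 11.1 to 2459). Uhrf1, which brings the maintenance DNA methyltransferase to new strands, had 0 and 760 UMIs and was at least 30-fold higher against a floor of 3 counts over the class.

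Repair, fork protection and checkpoint genes summed to 41.2 CPM for control and 247 CPM for mutant cells, a ratio of 6.01 (5.11 to 7.10), and 10 of 11 were at least 2-fold higher. Usp1, a deubiquitinase that acts on PCNA and FANCD2, had the highest mutant level of all 40 genes, 76.1 CPM, against 10.1 CPM in control cells, a ratio of 7.54 (5.46 to 10.7). Tipin, of the fork protection complex, had 22.4 and 64.6 CPM, a ratio of 2.89 (2.31 to 3.64). Ung, the uracil-DNA glycosylase, had 1 and 564 UMIs, a ratio of 66.9 (12 to 2646), and Dtl, a substrate receptor of the CRL4 ubiquitin ligase, had 2 and 667 UMIs, a ratio of 39.5 (10.9 to 327). Exo1 and Brip1, an exonuclease and a helicase of repair, had no control UMI and were at least 7.11-fold and 6.13-fold higher. Blm, the Bloom syndrome helicase, lay just under the 2-fold limit at 2.00 (1.14 to 3.81). The regulators Ccne2, a cyclin that drives entry into S phase, and E2f8, a repressor of E2F target genes, had 5 and 0 control UMIs against 318 and 287 in the mutant. Ccne2 was thus 7.54-fold higher (3.20 to 23.4), and E2f8 at least 11.3-fold.

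A further 37 DNA replication genes that are not members went the same way in 34 cases, with 27 at least 2-fold higher, 1 at least 2-fold lower and a median log2 ratio of 1.70. Dut, which breaks down dUTP, had 38.2 and 115 CPM, and Lig1, the ligase that joins Okazaki fragments, 12 and 80.1 CPM. Tk1, thymidine kinase, had the largest ratio, 94.2 (26.0 to 779), from 2 control UMIs. The gene at least 2-fold lower in the mutant was E2f2, an activator of S phase genes, with 20.2 CPM for control and 9.96 CPM for mutant cells, 2.03-fold lower. E2f1, its close relative, was named after its values were seen and had 37.1 and 20.5 CPM.

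Among genes with a promoter window, the 12 with an E2F match had a median compartment ratio of 12.3 (range 1.30 to 144) and the 18 without had 3.19 (1.34 to 66.9). The ranges overlap almost fully. Casp8ap2, Ubr7 and Pold3 carry a match and were among the genes of small ratio, while Ung has none in its window and was among the largest.

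Levels differed between the clusters of the mutant compartment, which are numbered as in the plot by cluster (epit1 to epit9). The highest level was in cluster 7, 259 mutant cells led by 2810417H13Rik, Prc1 and Ccna2, the last 2 being genes of cell division, with 2918 CPM. Cluster 6 (269 cells, led by Gpx2 and Akr1b8) had 1198 CPM, and cluster 1 (638 cells, led by Tff2, Spink4 and Tff1, genes of gut epithelium) had 1056 CPM. The AT1-like cluster 5 (379 cells) had 852 CPM. The lowest were cluster 3 (508 cells, led by Sprr1a, Tm4sf1 and Sema3c, with the cell cycle inhibitor Cdkn1a among its top genes) with 400 CPM, and the AT1-like cluster 9 (168 cells) with 350 CPM (321 to 381). Clusters were built without the listed cell cycle genes, but unlisted ones such as Prc1 and Ccna2 were kept. These are among the top genes of cluster 7, so its high S phase level is not independent of how the cluster was formed. Cluster 9 is the AT1-like cluster with over 20 cells from each library. Its 23 control cells had 305 CPM, so that within this cluster the ratio was 1.15 (0.862 to 1.56), an interval that includes 1. In AT1-like clusters alone the levels were 313 CPM for control and 723 CPM for mutant cells, but the control cells there are mainly those of cluster 2 (517) and the mutant cells those of clusters 5 and 9. Since the other clusters hold cells of the mutant library almost alone, cluster and library cannot be told apart there.

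**Figure D2:**
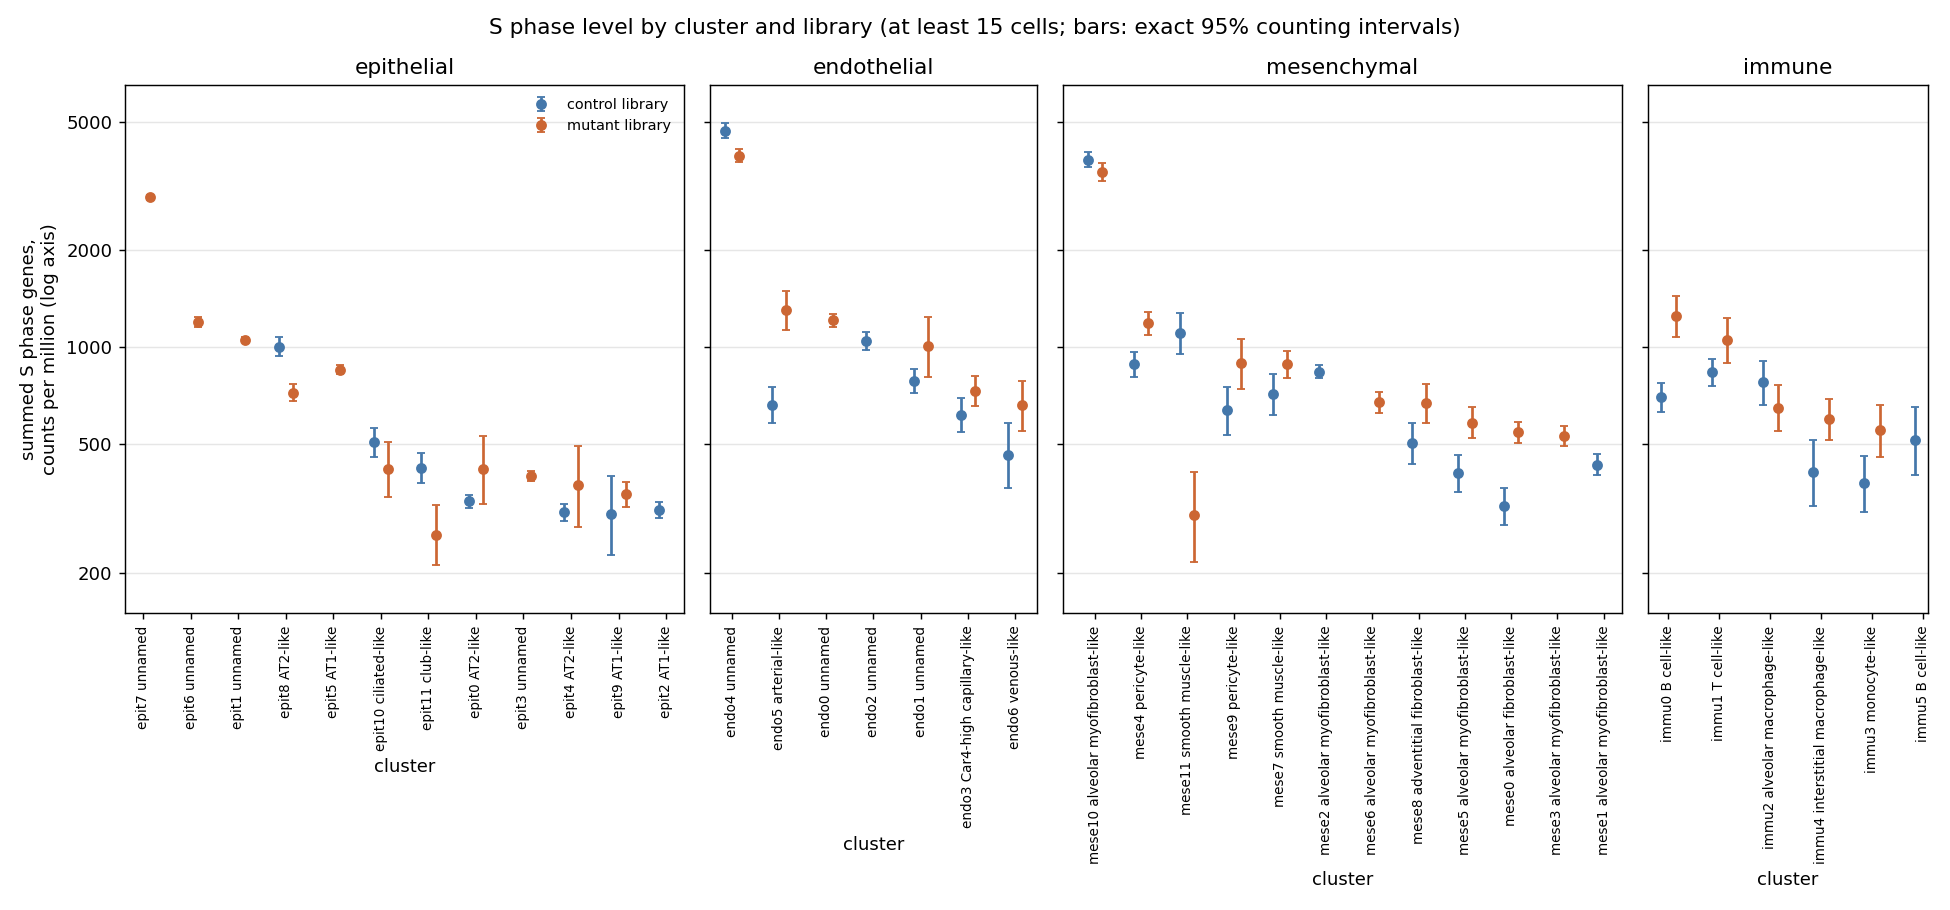
Summed level of the 40 S phase genes by cluster, in CPM on a log axis, for clusters and libraries with at least 15 cells, with exact 95% counting intervals. Cluster epit7 of the mutant library, at 2918, is the highest of the epithelium, and the clusters endo4 and mese10, present in both libraries, are the highest of the endothelium and mesenchyme. Prc1 and Ccna2, cell division genes kept for clustering, are among the top genes of each of these clusters.

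Single cells were compared after every cell had been thinned to 2000 UMIs, which left out no cell. In the control compartment 0 of 541 cells had at least 5 S phase UMIs, which allows a share of up to 0.555% by 3 counts of the total (0.680% as the exact upper bound), and in the mutant 308 of 2226 cells had (13.8%, 12.4 to 15.3). Without thinning the shares were 8.87% and 55.0%, shares that move with the depth of a cell as well as with its S phase genes. Ciliated cells, a non-dividing type, had 0 of 99 control and 0 of 43 mutant cells past the limit (median depths 6320 and 4981 UMIs). Cells with no S phase UMI at all were 54.9% of control and 37.6% of mutant compartment cells. The limit cut through a continuous range, with 77 mutant cells at 4 UMIs and 64 at 5. The 308 cells carried 57.7% of the S phase UMIs of the thinned mutant compartment. They were deeper than the other mutant cells before thinning, with medians of 15696.5 and 11912 UMIs. By cluster, 139 of the 308 cells lay in cluster 7, 81 in cluster 1, 44 in cluster 6 and 33 in cluster 5, against 9 in cluster 3 and 2 in cluster 9.

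**Figure D3:**
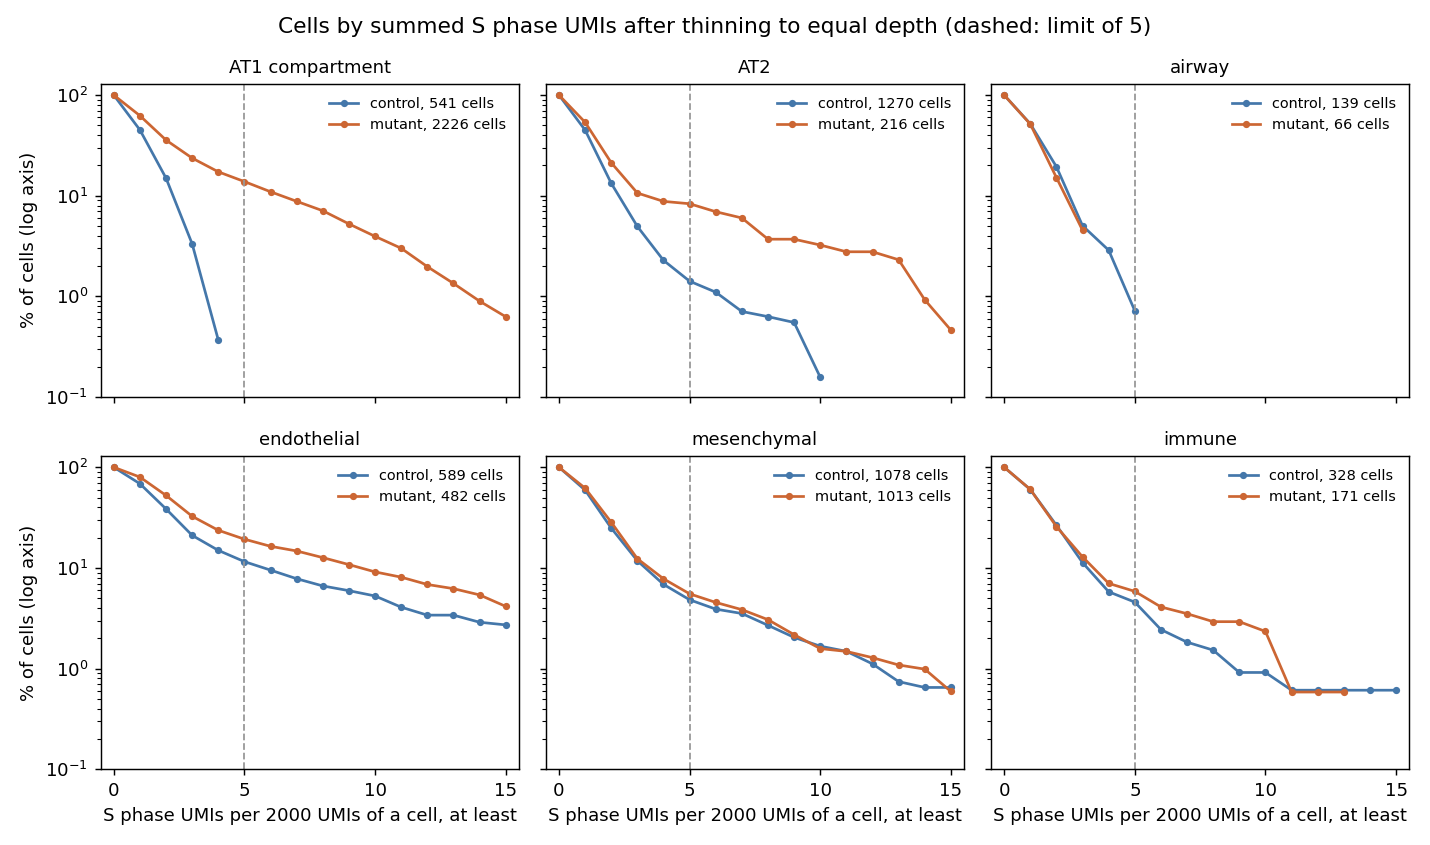
Share of cells (%, log axis) with at least the number of S phase UMIs on the x axis, after thinning each cell to 2000 UMIs, by class and library; the last point counts 15 or more, and the dashed line is the limit of 5. No control cell of the AT1 compartment reaches 5, while 13.8% of its mutant cells do, and the mesenchymal curves lie close together.

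Of the 308 mutant cells, 204 also had at least 5 UMIs of 52 G2 and M phase genes, 104 did not, and 283 more cells passed only the G2 and M phase limit. The mix of S phase transcripts in the 308 cells was set beside that of cells past the same limit in other classes, as each gene's share of all S phase UMIs. Tipin (5.74%), Pcna (5.44%), Gmnn (5.28%), Nasp (5.25%) and Usp1 (5.13%) led in the compartment. The shares were within 2-fold for 39 of 40 genes of the 93 such endothelial cells of the mutant, Gins2 being 2.12-fold higher. They were within 2-fold for 39 of 40 genes of 56 mesenchymal cells of the mutant, where Casp8ap2 was lower in the compartment with a ratio of 0.486. Against the control library 35 of 40 genes were within 2-fold for 68 endothelial cells and 36 of 40 for 52 mesenchymal cells. The widest difference there was Wdr76 against mesenchymal cells, at a ratio of 3.85, and Casp8ap2 was at least 2-fold higher against both.

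S phase genes were next compared between cells with and without G2 and M phase transcripts, with at least 3 against 0 such UMIs after thinning, within 1 library at a time. In the mutant compartment 940 cells with them had 1806 CPM of S phase genes and 333 cells without had 432 CPM, a ratio of 4.18 (3.98 to 4.38). In the control compartment the levels were 349 CPM in 154 cells and 295 CPM in 103 cells, a ratio of 1.18 (0.997 to 1.41). Tubb4b, a tubulin gene on the list, made up 49.5% of the control compartment's G2 and M phase UMIs and 9.67% of the mutant's. The ratio was 3.05 and 4.36 in AT2 cells of the control and mutant, 3.47 and 4.11 in endothelial, 4.63 and 3.12 in mesenchymal and 2.69 and 4.21 in immune cells. The interval of the ratio included 1 in the control AT1 compartment and in none of the other 9 groups. These intervals leave out spread between cells, so the groups were not tested against each other. With Tubb4b left out of the list, a choice made after its share was seen, the ratio of the control compartment was 1.25 and its interval of 1.01 to 1.54 no longer included 1.

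Genes differed in how far they went with G2 and M phase transcripts in the mutant compartment. Rrm2 had the largest ratio, 96.3 (32.9 to 468), with 71.4 CPM in cells that had such transcripts and 0.741 CPM in those without. Exo1 (43.4), E2f8 (37.9) and Cdc45 (32.5) followed. In the 333 cells without such transcripts Rrm2 had 3 UMIs, and Exo1, E2f8 and Cdc45 had 1, 2 and 1. The size and order of these largest ratios are therefore uncertain. The smallest ratios were those of Pold3 (1.74, 1.33 to 2.30), Ubr7 (1.81), Rfc2 (1.94) and Casp8ap2 (1.97). Ubr7, Rfc2 and Casp8ap2 were also among the genes of the smallest mutant to control ratio. In the control compartment Rrm2 had 12.2 CPM in cells with such transcripts and 12.7 CPM in cells without, a ratio of 0.958 (0.379 to 2.54).

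**Figure D4:**
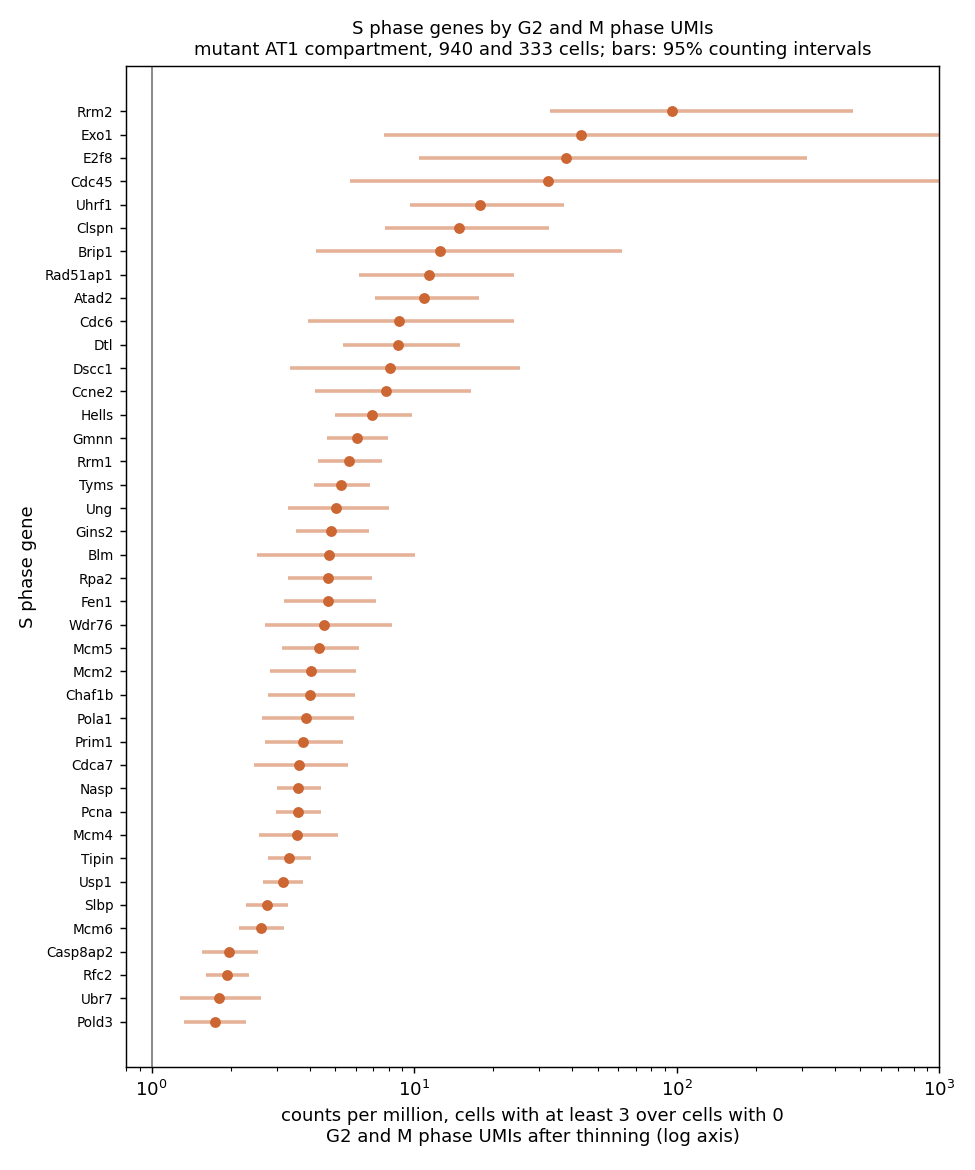
For each S phase gene in the mutant AT1 compartment, the level in 940 cells with at least 3 G2 and M phase UMIs over that in 333 cells with 0, on a log axis, with exact 95% counting intervals; the vertical line marks a ratio of 1, and the bars of Exo1 and Cdc45 run past the axis end. Rrm2 is highest at 96.3 and Pold3 lowest at 1.74, and no interval reaches 1.

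Mutant and control cells of the compartment were then compared among cells with no G2 and M phase UMI and among cells with at least 3. The latter were not matched in their G2 and M phase UMIs. At least 5 were found in 39 of 154 control and 487 of 940 mutant cells, or without Tubb4b in 5 of 46 and 437 of 773. Among cells with no such UMI the level was 295 CPM for control and 432 CPM for mutant cells, a ratio of 1.47 (1.27 to 1.70), and 11 of 26 measured genes were at least 2-fold higher (background 19.0%). Among cells with at least 3 it was 349 and 1806 CPM, a ratio of 5.17 (4.67 to 5.74), with 37 of 40 at least 2-fold higher (background 20.7%). Without Tubb4b these ratios were 1.40 and 5.24, from 217 and 469 cells and from 46 and 773 cells. Rrm2 was lower in the mutant in cells with no G2 and M phase UMI. By the list without Tubb4b it had 24 UMIs (16.1 CPM) in the control and 5 UMIs (0.891 CPM) in the mutant, 18.1-fold lower in the mutant, and the interval of the ratio was 0.0164 to 0.148.

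AT2 cells also had a higher level in the mutant library, but by less. The 40 genes summed to 380 CPM (368 to 393) in 1270 control cells and 667 CPM (629 to 707) in 216 mutant cells, a ratio of 1.75 (1.64 to 1.88). Of 36 measured genes 18 were at least 2-fold higher (background 7.66%) and none at least 2-fold lower (background 4.74%). Atad2, a chromatin ATPase, had the largest ratio, 6.57 (4.42 to 9.81), followed by Rrm2 at 5.66 (3.77 to 8.49) with 5.33 and 30.1 CPM, and Clspn, a checkpoint adaptor, at 4.81 (2.25 to 10.1). The smallest were Pold3 (0.741, 0.326 to 1.49), Slbp (1.00, 0.797 to 1.25) and Rfc2 (1.16, 0.837 to 1.59). Cells with at least 5 thinned S phase UMIs were 18 of 1270 (1.42%, 0.842 to 2.23; 12.4% unthinned) in the control and 18 of 216 (8.33%, 5.01 to 12.9; 21.8% unthinned) in the mutant.

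The AT2 difference did not hold within the cluster that held most mutant AT2 cells. Cluster 8, led by Lrg1, had 80 of 1270 control and 179 of 216 mutant AT2 cells, and its level was 1004 CPM for control and 723 CPM for mutant cells, a ratio of 0.720 (0.656 to 0.791). Of the 18 control cells past the limit, 11 were in it. In the other AT2-like clusters, 0 and 4, the ratios were 1.26 (0.974 to 1.60) and 1.21 (0.891 to 1.62), from 18 and 19 mutant cells. Different clusters thus held most AT2 cells of each library.

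In the airway class the summed level was 463 CPM in 139 control cells and 330 CPM in 66 mutant cells, a ratio of 0.713 (0.605 to 0.836). Of 13 measured genes none was at least 2-fold higher (background 8.51%) and 5 were at least 2-fold lower (background 6.44%): Rrm2 (0.212, 0.0419 to 0.669), Tyms (0.244, 0.0279 to 0.994), Pcna (0.309, 0.119 to 0.675), Mcm6 (0.310, 0.0601 to 1.01) and Tipin (0.328, 0.101 to 0.829). A single club-like control cell of 33260 UMIs held 146 of the 732 control S phase UMIs and 31 of the 38 Rrm2 UMIs. Without that cell, left out after it was seen, the levels were 379 and 330 CPM, a ratio of 0.871 (0.737 to 1.03), and Rrm2 was at 1.13 (0.188 to 4.94). Pcna remained at 0.376 and Tipin at 0.387. With the cells scored as doublets kept, the summed log2 ratio turned from -0.49 to 0.34, so no direction is read for this class. Rfc2 reached its highest level of all classes in control airway cells, 69.6 CPM, with 116 CPM in their ciliated cells and 39.1 CPM in the mutant class. Fen1, Cdca7 and Uhrf1, with 13, 6 and 7 control UMIs, and Dscc1, Clspn, Brip1 and Blm, with 3 or fewer, had none in the mutant airway cells.

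Endothelial cells had the highest level of S phase genes in either library, 1222 CPM (1182 to 1264) for control and 1576 CPM (1531 to 1623) for mutant cells, a ratio of 1.29 (1.23 to 1.35). Of 40 genes 7 were at least 2-fold higher (background 7.11%) and none at least 2-fold lower (background 2.2%). Brip1 had the largest ratio at 6.39 (2.47 to 21) from 5 and 32 UMIs, then Casp8ap2 at 2.86 (2.2 to 3.76), with 27.0 and 77.2 CPM, and Usp1 at 2.60 (2.11 to 3.22), with 44.1 and 115 CPM. Pcna was lower, with 91.8 and 71.3 CPM (0.777, 0.644 to 0.936), and Dscc1 (0.713, 0.381 to 1.31) and Fen1 (0.814, 0.603 to 1.10) had intervals that include 1. Cells past the limit of 5 UMIs were 68 of 589 (11.5%, 9.08 to 14.4; 26.8% unthinned) and 93 of 482 (19.3%, 15.9 to 23.1; 44.0% unthinned). As in AT2 cells, different clusters held most cells of each library: clusters 1 and 2 had 176 and 168 control but 18 and 8 mutant cells, and cluster 0 had 2 control and 249 mutant cells. The class ratio therefore compares cells of partly different clusters. In the dividing endothelial cluster the level was 4692 CPM in 47 control cells and 3925 CPM in 77 mutant cells, lower in the mutant with a ratio of 0.837 (0.781 to 0.897). Arterial-like cells had 663 and 1303 CPM, a ratio of 1.97 (1.63 to 2.38), from 79 and 25 cells.

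In mesenchymal cells the sums were alike, 788 CPM (768 to 809) and 785 CPM (763 to 808), a ratio of 0.996 (0.958 to 1.04), while single genes lay on both sides. Of the 40 genes 20 were higher (background 53.5% of genes) and 20 lower, 4 at least 2-fold higher (background 6.94%) and 1 at least 2-fold lower (background 2.39%). Higher were Wdr76 (3.67, 1.88 to 7.71), Casp8ap2 (2.59, 2.11 to 3.19; 19.5 and 50.6 CPM), Pola1 (2.35, 1.58 to 3.54) and E2f8 (2.10, 1.10 to 4.14). Lower were Cdc45 (0.397, 0.188 to 0.783), Rrm2 (0.502, 0.395 to 0.634; 34.5 and 17.3 CPM) and Dscc1 (0.635, 0.330 to 1.18). The deoxynucleotide supply as a group had a ratio of 0.644 (0.563 to 0.736), from 89.4 to 57.6 CPM, with Tyms at 0.693 (0.554 to 0.864) beside Rrm2. Cells past the limit were 52 of 1078 (4.82%, 3.62 to 6.28; 21.7% unthinned) and 56 of 1013 (5.53%, 4.20 to 7.12; 21.8% unthinned). The largest myofibroblast-like clusters were split by library, and 4 of them (272, 254, 2 and 1 control and 3, 5, 237 and 157 mutant cells) could not be compared within a cluster. They held 529 of 1078 control and 402 of 1013 mutant cells, so the class ratio compares partly different clusters. Of the other clusters, with at least 15 cells of each library, 6 had a higher level in the mutant and 2 a lower. Among the 6, alveolar fibroblast-like cells had the largest ratio, with 321 and 545 CPM (1.70, 1.46 to 1.97). The lower were a dividing myofibroblast-like cluster of 32 and 32 cells, 3813 and 3490 CPM, and a smooth muscle-like cluster of 18 and 20 cells, 1106 and 301 CPM (0.272, 0.189 to 0.384).

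Immune cells had 659 CPM (623 to 697) for control and 760 CPM (709 to 813) for mutant cells, a ratio of 1.15 (1.05 to 1.26). Of 31 measured genes 4 were at least 2-fold higher (background 8.98%), Hells (2.44, 1.17 to 5.22), Gins2 (2.33, 0.999 to 5.61), Clspn (2.17, 0.917 to 5.29) and Pola1 (2.09, 0.786 to 5.70), and none at least 2-fold lower (background 5.91%). The lowest ratios were those of Rfc2 (0.538, 0.357 to 0.794), with 60.1 and 32.3 CPM, Cdca7 (0.683, 0.260 to 1.62) and Mcm2 (0.744, 0.395 to 1.35). Cells past the limit were 15 of 328 (4.57%, 2.58 to 7.43; 16.5% unthinned) and 10 of 171 (5.85%, 2.84 to 10.49; 23.4% unthinned). Of 5 immune clusters with at least 15 cells of each library, 4 had a higher level in the mutant and 1 a lower. A B cell-like cluster had the largest ratio, with 699 and 1247 CPM (1.78, 1.49 to 2.13), from 95 and 26 cells. The lower was that of alveolar macrophage-like cells (0.836, 0.666 to 1.05). Another B cell-like cluster, of 44 control and 4 mutant cells, could not be compared.

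Across classes, some genes kept 1 direction and others did not. Usp1 was higher in the mutant in all 6 classes, with ratios of 7.54 in the AT1 compartment, 2.60 in endothelial, 2.35 in AT2, 1.88 in mesenchymal, 1.82 in immune and 1.68 in airway cells. The airway interval, 0.820 to 3.34, includes 1. Casp8ap2 was higher in all 6 classes too, but there the AT1 compartment had the smallest ratio (1.30) and endothelial cells the largest (2.86). Its airway ratio of 1.79 came from 15 and 10 UMIs, with an interval of 0.720 to 4.26 that includes 1. The clamp gene Pcna was higher in the compartment (2.40), AT2 cells (1.28, 0.993 to 1.63) and immune cells (1.08, 0.784 to 1.49), and lower in endothelial and mesenchymal cells. Its airway level was also lower, from 61 control and 7 mutant UMIs, but no direction is read for that class. By median log2 ratio the classes were ordered as the AT1 compartment (2.80), AT2 (1.02), endothelial (0.41), immune (0.29), mesenchymal (0.02) and airway (-0.54), against medians of all genes between 0.04 and 0.19. These medians are over unlike sets of measured genes, 40, 36, 40, 31, 40 and 13 in that order.

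**Figure D5:**
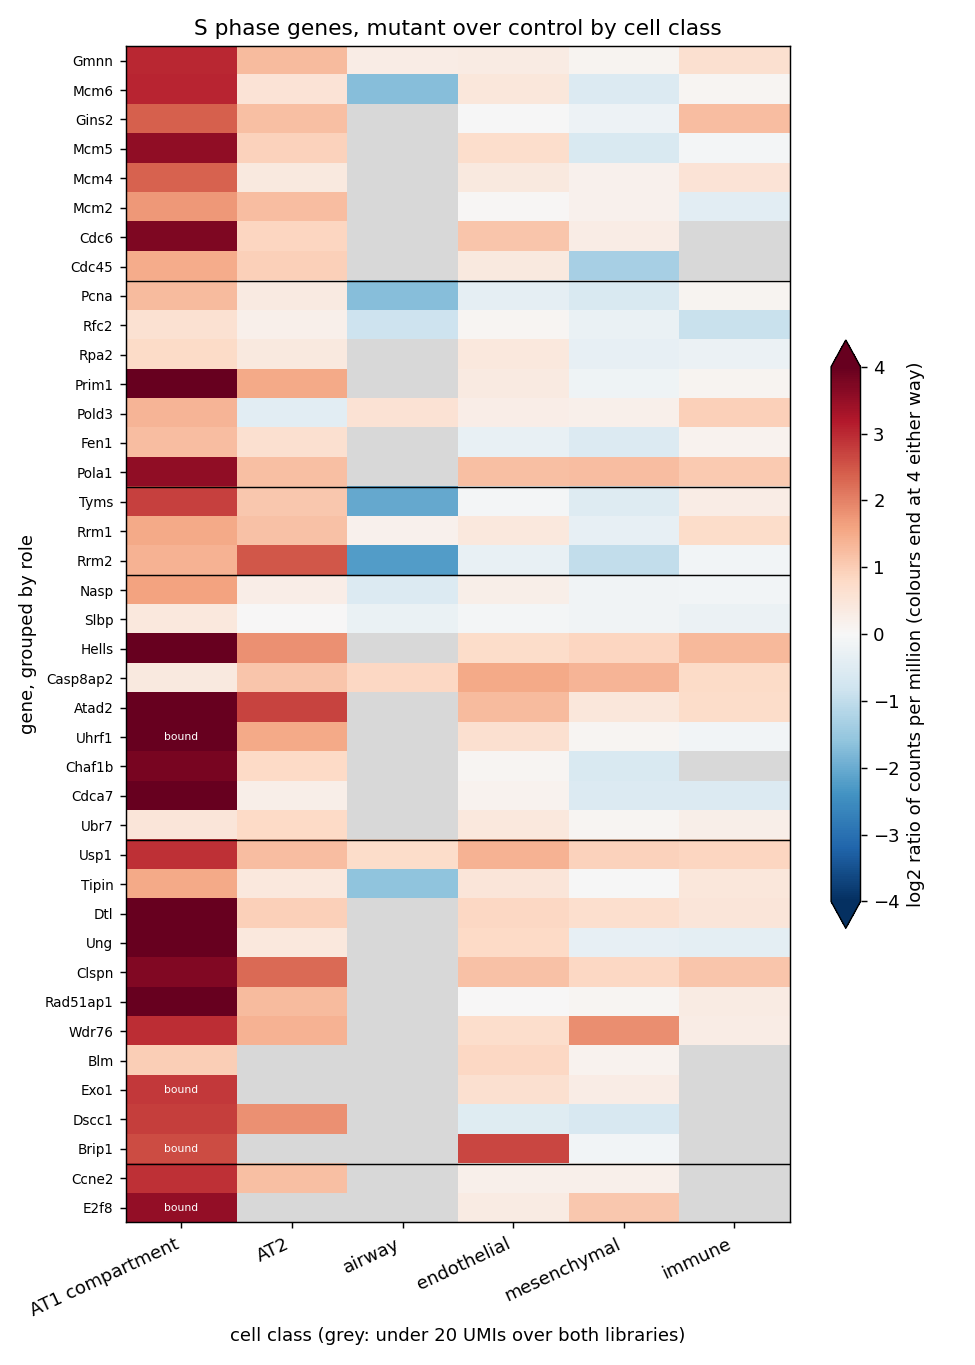
Log2 ratio of CPM, mutant over control, for each S phase gene (rows, grouped by role) in each cell class (columns); grey marks genes with under 20 UMIs over both libraries, and "bound" marks genes with 0 control UMIs. The AT1 compartment column is red for all 40 genes, and the mesenchymal column holds 20 genes on each side of 0.

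By level, 25 of the 40 genes were highest in mutant endothelial cells, 6 in control endothelial cells and 6 in the mutant AT1 compartment, 2 in control mesenchymal cells and 1 (Rfc2) in control airway cells. The lowest level was in the control AT1 compartment for 17 genes and in mutant airway cells for 14. Some neighbours in the order of summed levels had overlapping intervals. These were control and mutant mesenchymal cells with mutant immune cells (788, 785 and 760 CPM), mutant AT2 with control immune cells (667 and 659 CPM), control AT2 with mutant airway cells (380 and 330 CPM), and mutant airway cells with the control AT1 compartment (330 and 313 CPM). Control compartment cells were not without S phase transcripts: Slbp (46.1 CPM), Rfc2 (31.4 CPM), Pcna (26.7 CPM) and Casp8ap2 (24.3 CPM) led there. Ciliated cells of the control had 78.0 CPM of Slbp, 116 CPM of Rfc2 and 48.9 CPM of Pcna, so these genes had UMIs in a cell type with no cell past the limit. Of the 59 Slbp UMIs there, 17 came from 1 cell.

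The G2 and M phase genes, used as a neighbouring group, were higher in the mutant by a ratio of 2.88 in the AT1 compartment (989 and 2849 CPM), 2.15 in AT2 cells, 1.63 in endothelial, 1.11 in immune and 1.07 in mesenchymal cells, and lower in airway cells at 0.728. By these summed ratios the 6 classes came in the same order for both groups of genes, with airway cells last, a class for which no direction is read. By the median log2 ratio of the G2 and M phase genes, airway cells (0.064) stood above mesenchymal cells (0.049). Tubb4b made up 70.3% of the G2 and M phase UMIs of control airway cells and 54.2% of those of mutant airway cells. Cells scored as doublets and left out had S phase levels of 451 CPM for control and 1138 CPM for mutant cells, against 586 and 1076 CPM in the cells kept.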

How the data were processed

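Raw UMI counts per gene and barcode, made and deposited by the authors, were used as the only values. The submitters' processing notes list Cell Ranger, Seurat and mm10. Tool versions, the annotation and any filter on barcodes were not given in the sources used here. Barcodes began at 2278 control and 3874 mutant UMIs.

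Barcodes of fewer than 500 genes (1 in each library) or of 10% or more mitochondrial counts (320 and 132) were dropped. Doublets were scored with Scrublet in scanpy 1.11.5 (Python 3.11.15, numpy 2.4.6, pandas 2.3.3), and the highest scores were removed up to an expected 0.8% per 1000 cells, which took out 128 control and 153 mutant cells. Of simulated doublets 60.4% and 58.2% scored above that threshold, so doublets will remain among the cells. Cells were scaled to 10000 counts, logged, and clustered with leidenalg 0.10.2 (2000 variable genes without the listed cell cycle genes, histone, mitochondrial, ribosomal or sex-linked genes, 30 principal components, 20 neighbours, resolution 1, seed 1), by lineage and then within lineage, without integration. A cluster was named if its markers averaged a log2 fold of at least 2 over the 25th percentile of clusters, with at least 3 markers in at least 10% of its cells and no more rival than own markers among its top 10 genes. Clusters of mixed lineage were left out (68 and 91 cells).

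Counts were summed per class and library and divided by the class total (CPM). Intervals were computed with scipy 1.17.1 at 95%. A gene counted as measured from 20 UMIs, both libraries together, and a gene at 0 took a floor of 3 counts over the class. Cells were thinned once, without replacement and with a fixed seed, to 2000 UMIs. Positions and exons came from GENCODE M21. The code was tested on simulated data.

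The 40 genes, the other gene lists and the markers were chosen with earlier results of these data known. All 40 genes could be named. In each class full values went to the 2 of highest level in each role, the 3 largest and 3 smallest ratios, and genes at 0. Thresholds for naming clusters, the promoter stretches and 2 alternatives (without Tubb4b, and without a single airway cell) were chosen after seeing the data. The other alternatives changed doublet removal, the mitochondrial filter, clustering, the epithelial class, scaling, the UMI minimum, the thinning depth and the cell limits. Nothing says how many animals a library held, so its intervals do not cover spread between animals.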

Additional observations from a re-analysis of the deposited data

Results flagged for a closer look

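Some S phase genes had opposite directions in different cell classes of the same pair of libraries, with intervals of the mutant to control ratio on opposite sides of 1. All 40 S phase genes were higher in the mutant in the AT1 compartment, with intervals above 1. A gene with an interval below 1 in another class is therefore opposite by that fact alone. The share of all genes that met the same rule is not given. With 1 library per group these differences between classes were not tested. In airway cells the summed level had a ratio of 0.713, Rrm2 of 0.212, Tyms of 0.244, Pcna of 0.309, Tipin of 0.328 and Rfc2 of 0.562. A single control cell held 146 of the 732 control UMIs behind these values, and without it the intervals of the summed ratio (0.871, 0.737 to 1.03), Rrm2 (1.13, 0.188 to 4.94) and Tyms (0.329, 0.0367 to 1.40) include 1. With cells scored as doublets kept, the airway log2 ratio of the sum turned to 0.34, so no direction is read for that class. In mesenchymal cells 9 of the 40 genes had an interval below 1 and 9 others had one above 1. Those below were Cdc45 (0.397), Rrm2 (0.502), Pcna (0.653), Mcm5 (0.655), Cdca7 (0.677), Mcm6 (0.689), Fen1 (0.690), Tyms (0.693) and Rfc2 (0.826). Pcna was also lower in endothelial cells (0.777), and Rfc2 in immune cells (0.538).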

How the results depend on the processing

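Summed levels are given here as log2 ratios of mutant over control, and the cause of a move was not tested unless the setting itself is fewer cells, fewer UMIs or another limit. Of the alternatives, 146 values stayed within counting error or 1.5 times a count, 60 moved and 1 reversed. The reversal was the airway summed level, from -0.49 to 0.34 with cells marked as doublets kept, and that level was -0.20 without the single control cell of most S phase UMIs, a setting chosen after seeing the data. With up to 20% mitochondrial counts all 30 values stayed. The summed ratio of the AT1 compartment (1.87) was 1.57 over all epithelial cells, 1.21 in AT1-like clusters alone and 1.66 as a mean over cells. Its count of 34 genes at least 2-fold higher and its median log2 ratio stayed under all alternatives run on them. The AT2 sum (0.81) was 0.50 with doublets kept and 0.66 without the 50 most abundant genes. As a mean over cells the endothelial sum (0.37) was 0.46 and the mesenchymal one (-0.01) 0.14, and the immune sum (0.20) was 0.39 with each library clustered alone.

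Counts of genes at least 2-fold higher were 8 in AT2, 2 in mesenchymal and 0 in immune cells among genes with at least 100 UMIs, 7 in airway and 7 in immune cells among genes with at least 1 UMI, and 4 in airway cells with doublets kept. The share of all genes at these settings is not given. These counts therefore show only how the count moved with the setting, and are not set against a background. Shares of cells past the limit followed the limit and the depth. At 3 UMIs they were, for control and mutant, 3.33% and 23.7% in the AT1 compartment, 21.1% and 32.6% in endothelial, 11.8% and 12.3% in mesenchymal and 11.3% and 12.9% in immune cells, with 4.96% in control AT2 and 5.04% in control airway cells. At 8 UMIs they were 7.10% in the mutant AT1 compartment, 0.630% and 3.70% in AT2, 6.62% and 12.7% in endothelial and 2.69% and 3.06% in mesenchymal cells, with 1.52% in control immune and 0% in control airway cells. Thinned to 1000 UMIs they were 4.63% in the mutant AT1 compartment, 3.24% in mutant AT2, 5.43% and 9.75% in endothelial, 2.5% and 2.07% in mesenchymal, 0.915% in control immune and 0% in control airway cells. The mutant AT1 share was 6.34% in AT1-like clusters alone, the control share 0.974% over all epithelial cells, and the AT2 shares 0.806% and 4.95% with doublets kept.

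The ratio of S phase levels between cells with and without G2 and M phase UMIs, taken at 5 or more against 1 or fewer, was 4.79 in the mutant AT1 compartment, 6.35 in control AT2, 5.85 and 5.04 in endothelial, 7.74 and 5.72 in mesenchymal and 3.44 in control immune cells. With doublets kept it was 2.2 and 2.87 in AT2. Without Tubb4b, also chosen after seeing the data, it was 1.25 (1.01 to 1.54) in the control and 4.68 in the mutant AT1 compartment, 4.11 and 5.41 in AT2 and 5.12 and 3.47 in mesenchymal cells. No paired analysis was possible because each group has 1 library. Few UMIs limit the airway class most, where 32 of the 40 genes had under 10 UMIs in the mutant and 20 in the control. In the control AT1 compartment 20 genes had under 10, and in each library of the other classes 10 or fewer.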
